A study of Homo sapiens with 6 samples.

Results

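The spliceosome genes described here are the 137 genes of the deposited expression table that its KEGG column assigns to the spliceosome entry, out of 34738 genes in all. The entry held 143 genes, and 6 HSPA heat shock genes were left out by their symbols. Of the 137 members, 125 had a mean of at least 1 FPKM over the 6 libraries and were tested together with the other genes above that level, 11867 in all. FPKM is a fragment count corrected for transcript length and for the mapped fragments of the library, so it allows levels to be compared between genes, while comparisons between libraries still depend on the scaling. The members were grouped by gene symbol into small nuclear ribonucleoproteins (SNRP and SNRNP), SF3, LSM, PRPF, HNRNP and SRSF genes, and the others by the step of splicing that their proteins serve.

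Cells of a human thyroid cancer line were transfected with an siRNA against GDF15 (siGDF15, 3 libraries), and 3 libraries of negative control cells (NC) served for comparison. No genotype change, time course or other agent is named in the labels, which give the line as KHM-5M, from an anaplastic thyroid carcinoma, whereas a legend of the paper names TPC-1. The study describes the libraries as biological replicates of 1 line, and whether NC cells received a control siRNA or no siRNA was not settled, so that knockdown and transfection cannot be told apart if they received none. Poly(A) RNA was sequenced. GDF15, the knockdown target, measured 22.4, 19.3 and 23.1 FPKM in NC and 10.8, 10.5 and 10.7 FPKM in siGDF15, without overlap (log2 fold change -0.92, standard error 0.079, adjusted p = 2.4e-05 from edgeR). Of 11 thyroid lineage markers with values, 3 had a mean of at least 1 FPKM, namely PAX8, HHEX and FOXE1. PAX8 was between 54.3 and 80.4 FPKM in the 6 libraries. The other 8, among them TG, NKX2-1 and SLC5A5, were at 0.219 FPKM or lower in each library.

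The spliceosome removes introns from precursor mRNA. It is built anew on each intron from the U1, U2, U4, U5 and U6 particles, each a small nuclear RNA with a ring of Sm or LSM proteins and its own proteins, and is rearranged by RNA helicases before and after each of its catalytic steps. SR proteins and hnRNP proteins bind the exons and introns and shift the choice of splice sites, and the exon junction complex and TREX stay on the spliced mRNA and guide its export.

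Most of the spliceosome genes were lower after GDF15 knockdown. Of the 125 tested members, 86 fell (68.8%) and 11 rose (8.80%) at an adjusted p under 0.05 by the quasi-likelihood test of edgeR with Benjamini-Hochberg adjustment over all tested genes, against 31.4% lower and 30.0% higher among all tested genes. The remaining 28 did not pass. The median log2 fold change (siGDF15 against NC) was -0.27 over the members and 0.00 over all tested genes, and 102 members were below 0. The falls were small: the 86 log2 fold changes ran from -1.03 to -0.13 with a median of -0.38, and 29 of them were -0.5 or lower. THOC3 was the 1 member past a log2 fold change of 1 (0.80% of members, against 7.81% of all tested genes). In FPKM, all 3 siGDF15 libraries lay below all 3 NC libraries for 102 members (81.6%, against 42.8% of all tested genes) and above them for 10 (8.00%, against 25.6%), while 13 overlapped. FPKM differences lay lower than the edgeR fold changes by a median of 0.11 on the log2 scale, because the TMM factors of edgeR were 1.03 to 1.04 in NC and 0.958 to 0.972 in siGDF15. Share of reads was measured here, and in bulk RNA fewer cells of a kind and less RNA per cell cannot be told apart.

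Summed over all members, the level was 3671, 3470 and 3780 FPKM in NC replicates 1 to 3 and 2856, 2787 and 2843 FPKM in siGDF15 replicates 1 to 3. The lowest NC sum was therefore higher than the highest siGDF15 sum, and the mean share of all FPKM was 1.40% in NC and 0.998% in siGDF15. The NC libraries were less alike than the siGDF15 libraries. NC replicate 2 was the lowest of its group for 95 of the 125 members and NC replicate 3 the highest for 83, and the median of the members was -0.32 without the former and -0.24 without the latter. Total counts were between 67569576 and 68025163 in 5 libraries and 51738814 in siGDF15 replicate 2, and mitochondrially encoded genes held 6.39 to 6.78% of counts in NC and 8.53 to 9.17% in siGDF15. The part of that difference in the values below was not tested.

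**Figure D1:**
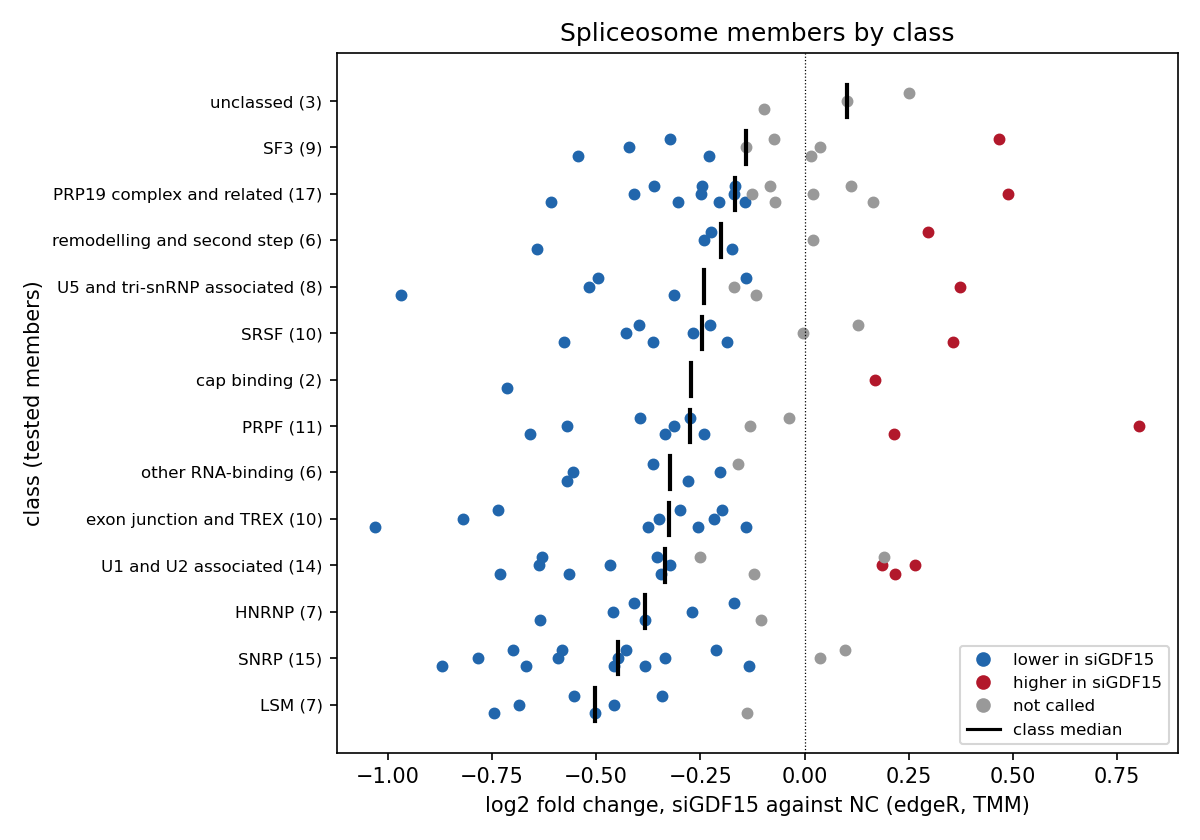
Log2 fold change (siGDF15 against NC, edgeR with TMM) of each tested member by class, with the number of tested members in parentheses, each point being 1 gene and the bar the class median. The LSM and SNRP medians lie farthest to the left at -0.50 and -0.45, and the red points to the right of 0 are the 11 members that rose.

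No class with more than 3 tested members had a median above 0. The class medians were -0.50 for 7 LSM genes, -0.45 for 15 SNRP genes, -0.38 for 7 HNRNP genes, -0.28 for 11 PRPF genes, -0.25 for 10 SRSF genes and -0.14 for 9 SF3 genes. Among the classes set by step, the medians were -0.33 for 14 genes of U1 and U2 association, -0.32 for 10 genes of the exon junction complex and TREX, -0.24 for 8 genes of U5 and tri-snRNP association, -0.20 for 6 remodelling and second-step factors and -0.17 for 17 genes of the PRP19 complex and its relatives. Falls were counted in 13 of 15 SNRP, 6 of 7 LSM, 6 of 7 HNRNP and 10 of 10 exon junction and TREX genes, in each with 0 rises. They were counted in 4 of 9 SF3 genes (44.4%) and 10 of 17 PRP19-related genes (58.8%), with 1 rise in each. Among all tested genes, 31.4% fell and 30.0% rose. Differences between the classes were not tested.

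The level of a member gave little hint of its change. HNRNPA1 was the most abundant member by mean and RP9 the least abundant of those tested, and 16 members had a mean of at least 50 FPKM and 16 a mean under 5 FPKM. Across the 125 members, which share libraries and depth, Spearman's rho between log2 mean FPKM and log2 fold change was -0.045, and it was 0.049 across all tested genes. By the annotation in the deposited table, the 32 tested members of the U4/U6.U5 tri-snRNP gave a median of -0.45 on the log2 scale with 24 lower and 2 higher. The 20 of the U2 snRNP had -0.38 with 14 lower and 1 higher, and the 58 of the catalytic step 2 spliceosome had -0.27 with 41 lower and 4 higher. Over all 125 tested members, 86 were lower (68.8%) and 11 higher (8.80%), against 31.4% and 30.0% of all tested genes. Whether these groups differed from the other members was not tested. Genes with several annotations stand in more than one of these groups. Of the 125 members, 71.2% had a transcript annotated in the deposited table as retaining an intron and 52.0% one as subject to nonsense-mediated decay, against 55.1% and 38.8% of all tested genes, and among the 86 that fell the shares were 72.1% and 54.7%.

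The promoters of the members with the largest changes are shown because most members that passed the test fell. RefSeq (GRCh38.p14) gave 129 promoters, from 250 bases before to 50 bases after a start, for 107 of the 125 tested members. The ETS motif CCGGAAG, searched on both strands like the others, stood in 41.1% of the members' promoters, against 17.9% of the 12815 promoters of tested genes and 10.3% of all 35116 promoters. Among the members it stood in 45.3% of 86 promoters of genes that fell, 54.5% of 11 promoters of genes that rose and 25.0% of 32 promoters of genes that did not pass, so it was not limited to one direction. AAGATGGC, a YY1 motif, stood in 10.1% of the members' promoters and 5.12% of those of tested genes. GCATGCGC, an NRF1 motif, stood in 7.75% and 5.04%, and the E2F motifs TTTCGCGC, TTTGGCGC and TTCCCGCC counted jointly in 10.1% and 6.71%. CCAAT stood in 39.5% and 34.9% and the E-box CACGTG in 7.75% and 9.63%. In promoters of genes that fell, rose and did not pass, the E2F shares were 12.8%, 0% and 6.25%. In the same order they were 8.14%, 0% and 9.38% for the E-box and 10.5%, 9.09% and 9.38% for YY1. For NRF1 they were 4.65%, 9.09% and 15.6%, and for CCAAT 40.7%, 36.4% and 37.5%. Only 11 promoters belonged to genes that rose, and these differences were not tested. A match is a run of letters, and binding was not measured.

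For the 3 largest falls and the 3 largest rises with a start that matched a GENCODE transcript and with libraries that did not overlap, the 100 bases before the start follow, read 5′ to 3′ on the strand of the gene, with motif matches on either strand in capitals. All 6 lie on the minus strand of GRCh38.p14. THOC3 (chr5:175968316-175968415) had an ETS match on the opposite strand, SNRPA1 (chr15:101295249-101295348) a CCAAT match on the opposite strand, and ALYREF (chr17:81891587-81891686) a CCAAT and a pair of ETS matches. Of the genes that rose, SYF2 (chr1:25232503-25232602) had an ETS match on each strand, SF3B6 (chr2:24076327-24076426) had 1 ETS match and TXNL4A (chr18:79988564-79988663) an NRF1 match.
THOC3: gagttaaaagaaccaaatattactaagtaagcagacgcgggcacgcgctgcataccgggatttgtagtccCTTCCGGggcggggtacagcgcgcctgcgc
SNRPA1: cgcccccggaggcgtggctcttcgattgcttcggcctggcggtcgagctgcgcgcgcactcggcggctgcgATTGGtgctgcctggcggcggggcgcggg
ALYREF: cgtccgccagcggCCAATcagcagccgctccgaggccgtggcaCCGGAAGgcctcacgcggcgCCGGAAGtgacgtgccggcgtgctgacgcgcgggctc
SYF2: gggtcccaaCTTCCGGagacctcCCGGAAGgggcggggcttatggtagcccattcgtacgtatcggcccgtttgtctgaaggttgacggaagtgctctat
SF3B6: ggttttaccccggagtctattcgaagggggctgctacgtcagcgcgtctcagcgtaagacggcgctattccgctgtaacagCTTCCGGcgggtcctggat
TXNL4A: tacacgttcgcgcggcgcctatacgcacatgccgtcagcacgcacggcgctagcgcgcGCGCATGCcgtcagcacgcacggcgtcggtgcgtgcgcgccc

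Of the 7 Sm proteins, which close into a ring around the U1, U2, U4 and U5 RNAs, 6 had lower transcripts after knockdown. SNRPD1 measured 15.9, 14.6 and 16.8 FPKM in NC and 8.86, 8.15 and 8.53 FPKM in siGDF15 (log2 fold change -0.78, standard error 0.066, adjusted p = 2.0e-05). SNRPE measured 29.6, 24.9 and 29.5 FPKM in NC and 18.0, 16.6 and 17.2 FPKM in siGDF15 (log2 fold change -0.59, standard error 0.080, adjusted p = 0.00030). The groups did not overlap for either gene, and the siGDF15 libraries were close to each other. SNRPF fell to 7.51 ± 0.274 FPKM from 12.1 ± 1.46 FPKM (values after ± are SDs over 3 libraries here and below), a log2 fold change of -0.58, and SNRPB and SNRPD3 fell by 0.45 and 0.34 on the log2 scale. SNRPG measured 16.6, 15.0 and 12.6 FPKM in NC and 10.4, 5.70 and 9.11 FPKM in siGDF15 (log2 fold change -0.70, standard error 0.20, adjusted p = 0.013). Its siGDF15 replicate 2, the library with the fewest counts, stood well below the other two, and its standard error was the widest of the ring. SNRPD2 was the exception and the most abundant of the SNRP genes, at 132, 128 and 136 FPKM in NC and 127, 130.4 and 136 FPKM in siGDF15. Its groups overlapped fully, with a log2 fold change of 0.10 (adjusted p = 0.12 from edgeR) that was -0.01 with libraries scaled by totals. Summed over the ring, the NC level was 275 ± 12.6 FPKM and the siGDF15 level 224 ± 5.09 FPKM (SD, n = 3 each), of which SNRPD2 made up more than the rest in siGDF15.

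The LSM ring, which binds the U6 RNA, showed the same number of falls. LSM6 measured 2.84, 2.09 and 2.53 FPKM in NC and 1.50, 1.32 and 1.31 FPKM in siGDF15, the largest fall of the ring (log2 fold change -0.74, standard error 0.14, adjusted p = 0.0019), at a low level. LSM4, the most abundant, measured 37.7, 36.2 and 37.9 FPKM in NC and 23.9, 24.7 and 24.7 FPKM in siGDF15 (log2 fold change -0.50, standard error 0.046, adjusted p = 3.4e-05). Neither gene overlapped between the groups. LSM5, LSM2, LSM8 and LSM3 had log2 fold changes of -0.68, -0.55, -0.46 and -0.34, and each passed the test. LSM7 went from 23.4 ± 2.10 FPKM in NC to 19.8 ± 0.684 FPKM in siGDF15 without overlap in FPKM but did not pass the test of edgeR (log2 fold change -0.14, adjusted p = 0.16). Over the ring, the NC sum was 108 ± 5.08 FPKM and the siGDF15 sum 75.0 ± 1.35 FPKM (SD, n = 3 each).

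**Figure D2:**
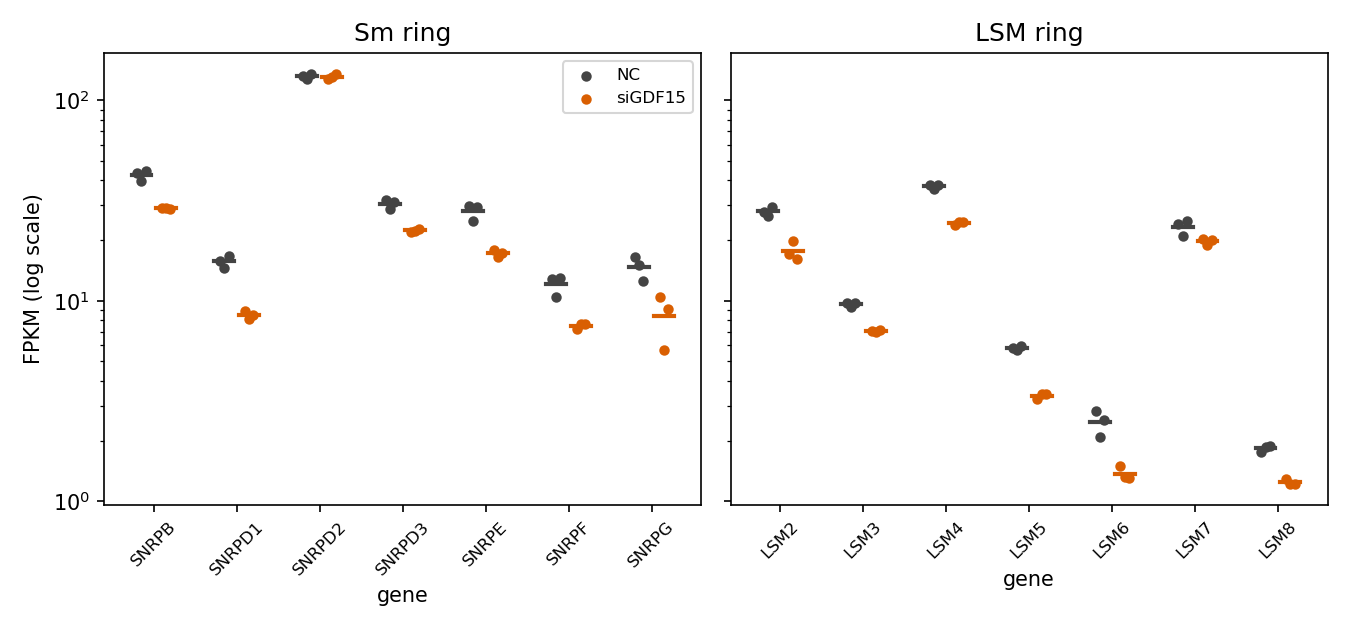
FPKM on a log axis of the 7 Sm genes and the 7 LSM genes in each of the 3 NC and 3 siGDF15 libraries, with a bar at each group mean. The siGDF15 points lie below the NC points for every gene but SNRPD2, near 131 FPKM in both groups, and SNRPG has 1 low siGDF15 library at 5.70 FPKM.

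Of the proteins proper to U1, which pairs with the 5′ splice site, SNRPA and SNRPC fell and SNRNP70 did not pass the test. SNRPA measured 30.9, 29.5 and 35.8 FPKM in NC and 21.2, 22.6 and 21.3 FPKM in siGDF15 and had a log2 fold change of -0.46, and SNRPC measured 52.7, 47.0 and 53.6 FPKM in NC and 34.0, 36.3 and 35.6 FPKM in siGDF15 with -0.43. Both were separated between the groups. SNRNP70 went from 53.8 ± 1.00 FPKM in NC to 51.3 ± 1.94 FPKM in siGDF15 (log2 fold change 0.04, adjusted p = 0.51 from edgeR), with overlapping libraries. RBM25, a U1-linked regulator of alternative sites, rose by the count test (log2 fold change 0.22, standard error 0.056, adjusted p = 0.0095) although its FPKM values overlapped, at 11.9, 10.9 and 12.0 FPKM in NC and 13.1, 11.8 and 12.7 FPKM in siGDF15.

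U2 recognises the branch point. SNRPA1, the A′ protein of U2, had the largest fall of the SNRP genes, with 12.9, 11.4 and 15.0 FPKM in NC and 7.38, 6.25 and 6.37 FPKM in siGDF15 (log2 fold change -0.87, standard error 0.11, adjusted p = 0.00023). Its partner SNRPB2 fell less, from 18.5 ± 1.70 FPKM in NC to 14.8 ± 0.546 FPKM in siGDF15 (log2 fold change -0.21, standard error 0.080, adjusted p = 0.047). NC replicate 3 was the highest library for both genes and siGDF15 libraries stayed below all NC libraries. U2SURP (chr3:142964497-143060725), a U2-associated SR-related protein, measured 19.1, 18.4 and 19.5 FPKM in NC and 11.5, 10.4 and 10.0 FPKM in siGDF15 (log2 fold change -0.73, standard error 0.060, adjusted p = 1.7e-05). U2AF2, which binds the polypyrimidine tract, measured 73.3, 65.4 and 75.9 FPKM in NC and 43.9, 42.2 and 42.2 FPKM in siGDF15 (log2 fold change -0.64, standard error 0.063, adjusted p = 5.0e-05). Both were clearly lower in each siGDF15 library. DHX15 and DDX46, helicases of spliceosome disassembly and of U2 joining, had log2 fold changes of -0.63 and -0.56, and PHF5A, SMNDC1 and RBM17 had -0.47, -0.34 and -0.32. PUF60, which acts beside U2AF2 on uridine-rich tracts, rose, at 47.8, 43.1 and 51.0 FPKM in NC and 51.3, 52.7 and 54.8 FPKM in siGDF15 (log2 fold change 0.27, standard error 0.068, adjusted p = 0.0092). Its siGDF15 libraries lay narrowly above the highest NC library. DDX42, a helicase of the U2 particle, also rose slightly, from 15.4 ± 0.183 FPKM in NC to 16.3 ± 0.219 FPKM in siGDF15 (log2 fold change 0.19, standard error 0.041, adjusted p = 0.0042).

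The SF3A and SF3B complexes hold U2 on the branch point, and of the 9 members with an SF3 symbol 4 fell, 1 rose and 4 did not pass. PHF5A, a further subunit of SF3B that was counted with the U2-associated genes, also fell. All 3 SF3A genes fell: SF3A3 measured 28.7, 27.1 and 30.9 FPKM in NC and 18.6, 18.1 and 18.5 FPKM in siGDF15 (log2 fold change -0.54, standard error 0.058, adjusted p = 7.5e-05), and SF3A1 and SF3A2 had log2 fold changes of -0.32 and -0.23. Of the 6 with an SF3B symbol, SF3B3 fell, from 21.5 ± 1.00 FPKM in NC to 14.9 ± 0.335 FPKM in siGDF15 (log2 fold change -0.42, standard error 0.050, adjusted p = 0.00014), and SF3B6 rose. SF3B6, the small protein next to the branch point adenosine, measured 43.0, 39.1 and 42.9 FPKM in NC and 54.0, 54.9 and 51.8 FPKM in siGDF15 (log2 fold change 0.47, standard error 0.062, adjusted p = 0.00026), with each siGDF15 library well above each NC library. SF3B1, the scaffold of the complex and a gene often mutated in myelodysplastic disease, measured 31.1, 32.3 and 29.6 FPKM in NC and 30.5, 28.1 and 28.8 FPKM in siGDF15, with overlapping groups and a log2 fold change of 0.01 (adjusted p = 0.81 from edgeR). SF3B5, the most abundant of the class at 90.1 ± 6.39 FPKM in NC and 85.9 ± 0.735 FPKM in siGDF15, had 0.04, and SF3B2 and SF3B4 had -0.07 and -0.14, none of which passed.

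In the U4/U6.U5 tri-snRNP, which brings the catalytic U6 and the exon-holding U5 to the intron, several genes around U4/U6 and several around U5 fell. PPIH (chr1:42658335-42676758), the cyclophilin of the U4/U6 particle, measured 4.92, 4.42 and 4.94 FPKM in NC and 2.44, 2.18 and 2.13 FPKM in siGDF15 (log2 fold change -0.97, standard error 0.082, adjusted p = 2.2e-05). PRPF4, which PPIH binds in that particle, measured 22.1, 19.6 and 22.9 FPKM in NC and 13.3, 12.5 and 12.2 FPKM in siGDF15 (log2 fold change -0.66, standard error 0.071, adjusted p = 7.9e-05). Each of them was lower in every siGDF15 library than in any NC library. The other U4/U6 proteins moved less: PRPF3 and PRPF31 had log2 fold changes of -0.13 and -0.04 and did not pass, and SNU13, which binds the U4 RNA directly, had -0.31 and passed. Of the exons of PPIH, 38.9% of bases lie opposite exons of another annotated gene, AC098484.4, which had 0.949 ± 0.119 FPKM in NC and 0.635 ± 0.0643 FPKM in siGDF15, and whether reads were counted by strand is not given in the sources used here.

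PRPF8, the protein that cradles the catalytic RNA, measured 44.1, 43.1 and 46.1 FPKM in NC and 28.4, 28.1 and 27.1 FPKM in siGDF15 (log2 fold change -0.57, standard error 0.047, adjusted p = 1.9e-05). SNRNP40, a U5 protein, measured 19.3, 17.2 and 20.2 FPKM in NC and 10.9, 11.1 and 11.2 FPKM in siGDF15 (log2 fold change -0.67, standard error 0.069, adjusted p = 6.3e-05). The 3 siGDF15 libraries were nearly equal for both genes, far below NC. DDX23, the helicase that hands the 5′ splice site from U1 to U6, went from 18.5 ± 0.168 FPKM in NC to 12.0 ± 0.161 FPKM in siGDF15, a log2 fold change of -0.52, and USP39, needed for joining of the tri-snRNP, had -0.50. SNRNP200, the helicase that unwinds U4 from U6, fell by 0.13 on the log2 scale (adjusted p = 0.023 from edgeR), and EFTUD2, the U5 GTPase, had -0.17 and did not pass (adjusted p = 0.064). ZMAT2, the most abundant gene of the U5 and tri-snRNP class, measured 33.6, 33.5 and 33.7 FPKM in NC and 27.3, 28.9 and 28.8 FPKM in siGDF15, and its call (log2 fold change -0.14, standard error 0.052, adjusted p = 0.042) was lost whenever any 1 library was left out. A pair of genes of this assembly rose. TXNL4A, a thioredoxin-like U5 protein, measured 9.29, 9.15 and 10.5 FPKM in NC and 11.5, 11.4 and 11.9 FPKM in siGDF15 (log2 fold change 0.37, standard error 0.066, adjusted p = 0.0013). PRPF6, which bridges U5 and U4/U6, measured 39.0, 37.0 and 40.6 FPKM in NC and 41.6, 41.3 and 42.9 FPKM in siGDF15 (log2 fold change 0.22, standard error 0.050, adjusted p = 0.0056). For each of them the lowest siGDF15 library stood above the highest NC library.

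The remaining PRPF genes belong to other steps. PRPF19, the ubiquitin ligase of the PRP19 complex and the most abundant PRPF gene, measured 48.6, 45.5 and 54.6 FPKM in NC and 35.4, 38.7 and 35.5 FPKM in siGDF15 (log2 fold change -0.33, standard error 0.078, adjusted p = 0.0057). PRPF38A and PRPF38B fell by 0.40 and 0.24 on the log2 scale, and PRPF18, a factor of the second step, by 0.31 at a low level of 1.63 ± 0.0312 FPKM in NC and 1.22 ± 0.123 FPKM in siGDF15. PRPF18 shares 42.0% of its exonic bases with exons of another gene on the same strand.

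In the PRP19 complex and its relatives, which keep the catalytic centre in place, 10 of 17 tested genes fell and 1 rose. CDC5L, a core member, measured 11.3, 12.1 and 11.2 FPKM in NC and 7.27, 6.42 and 7.38 FPKM in siGDF15 (log2 fold change -0.61, standard error 0.062, adjusted p = 5.8e-05). SNW1, the most abundant, went from 35.1 ± 1.52 FPKM in NC to 28.3 ± 0.236 FPKM in siGDF15 (log2 fold change -0.21, standard error 0.052, adjusted p = 0.0082). SYF2 was the exception, with 7.92, 7.75 and 8.14 FPKM in NC and 10.8, 9.64 and 10.6 FPKM in siGDF15 (log2 fold change 0.49, standard error 0.062, adjusted p = 0.00021), and each of its siGDF15 libraries was above each NC library. WBP11, PPIL1, CRNKL1, BUD31 and CTNNBL1 had log2 fold changes from -0.41 to -0.25 and passed the test. CWC15, XAB2, CCDC12, ISY1, PPIE and RBM22 lay between -0.13 and 0.16 and did not pass.

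Among the helicases and second-step factors, DDX5, a helicase that also serves transcription, measured 64.3, 65.4 and 61.8 FPKM in NC and 39.7, 37.2 and 37.2 FPKM in siGDF15 (log2 fold change -0.64, standard error 0.044, adjusted p = 7.2e-06) and was the most abundant of its class. DHX8, DHX38 and DHX16, the helicases that release the mRNA, remodel the centre between the steps and start the first step, had log2 fold changes of -0.24, -0.22 and -0.18. All of them passed. SLU7, which helps choose the 3′ splice site, rose, with 6.73, 7.25 and 6.04 FPKM in NC and 7.71, 7.57 and 7.55 FPKM in siGDF15 (log2 fold change 0.30, standard error 0.071, adjusted p = 0.0069). NC replicate 2, its highest NC library, was close to the siGDF15 libraries, which hardly varied. CDC40 had a log2 fold change of 0.02 and did not pass.

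All 10 tested genes of the exon junction complex and of TREX fell. THOC3 (chr5:175917873-176034680), a subunit of the THO core of TREX, measured 11.6, 11.3 and 12.2 FPKM in NC and 5.12, 5.78 and 5.04 FPKM in siGDF15 (log2 fold change -1.03, standard error 0.077, adjusted p = 1.1e-05). ALYREF, the export adaptor of TREX, measured 45.5, 38.4 and 54.4 FPKM in NC and 26.3, 22.9 and 23.8 FPKM in siGDF15 (log2 fold change -0.82, standard error 0.12, adjusted p = 0.00050). THOC3 varied little within a group, whereas ALYREF differed among the NC libraries by more than any other member in this class and still did not overlap. THOC3 shares 34.1% of its words of 150 bases with transcripts of other genes, chiefly AC106795.1 (chr5:177809407-177917267), which measured 4.64, 4.29 and 5.09 FPKM in NC and 2.19, 1.92 and 1.76 FPKM in siGDF15, and how the counting divided reads between them is not given in the sources used here. The log2 fold change of THOC3 was -0.97 when all libraries were brought to 1 median, and it lay between -1.10 and -0.99 with 1 library left out, so that it was not past 1 without NC replicate 3 or without siGDF15 replicate 1 or 3. THOC1 and THOC2 had log2 fold changes of -0.35 and -0.14. DDX39B, the helicase that loads ALYREF and the most abundant of the class, measured 52.8, 53.3 and 51.9 FPKM in NC and 42.2, 42.2 and 41.8 FPKM in siGDF15 (log2 fold change -0.22, standard error 0.039, adjusted p = 0.0015), and part of its transcripts is shared with the annotated read-through gene ATP6V1G2-DDX39B.

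Within the exon junction core, MAGOHB measured 2.65, 2.26 and 2.56 FPKM in NC and 1.46, 1.34 and 1.36 FPKM in siGDF15 (log2 fold change -0.74, standard error 0.10, adjusted p = 0.00034) and MAGOH measured 11.8, 11.1 and 12.8 FPKM in NC and 8.59, 8.41 and 8.60 FPKM in siGDF15 (log2 fold change -0.38, standard error 0.082, adjusted p = 0.0041). Their partner RBM8A fell from 29.8 ± 0.671 FPKM in NC to 22.5 ± 0.286 FPKM in siGDF15, and EIF4A3, the clamp on the RNA, from 19.2 ± 1.67 FPKM in NC to 14.9 ± 0.411 FPKM in siGDF15, with log2 fold changes of -0.30 and -0.26. ACIN1, an accessory factor, had -0.20. The cap-binding pair split. NCBP1, the large subunit, measured 22.3, 22.1 and 24.2 FPKM in NC and 13.5, 12.9 and 12.5 FPKM in siGDF15 (log2 fold change -0.71, standard error 0.055, adjusted p = 1.3e-05), and NCBP2, the small subunit that holds the cap, measured 28.3, 27.1 and 29.2 FPKM in NC and 29.2, 29.3 and 29.9 FPKM in siGDF15 (log2 fold change 0.17, standard error 0.046, adjusted p = 0.013). NCBP1 was far apart between the groups, while the lowest siGDF15 library of NCBP2 was barely above the highest NC library. The rise of NCBP2 was not called when libraries were scaled by totals (log2 fold change 0.07, adjusted p = 0.23 from edgeR).

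Of the 10 SR protein genes, 7 fell, 1 rose and 2 did not pass. SRSF7 measured 36.8, 32.3 and 38.9 FPKM in NC and 23.0, 22.5 and 21.8 FPKM in siGDF15 (log2 fold change -0.58, standard error 0.072, adjusted p = 0.00020), and SRSF1, a general activator of exon inclusion, measured 71.3, 65.8 and 73.6 FPKM in NC and 49.2, 47.7 and 48.7 FPKM in siGDF15 (log2 fold change -0.43, standard error 0.053, adjusted p = 0.00018). SRSF2, the most abundant, measured 104, 92.1 and 109 FPKM in NC and 81.8, 77.5 and 76.4 FPKM in siGDF15 (log2 fold change -0.27, standard error 0.068, adjusted p = 0.0091). In each of these the NC libraries were spread more widely than the siGDF15 libraries, and the groups did not overlap. SRSF3, SRSF10, SRSF4 and SRSF9 had log2 fold changes of -0.40, -0.36, -0.23 and -0.19, and passed. SRSF6 went from 52.2 ± 1.36 FPKM in NC to 48.5 ± 1.02 FPKM in siGDF15 (log2 fold change 0.00, adjusted p = 0.96 from edgeR), and SRSF8 had 0.13. SRSF5 rose, with 37.7, 36.6 and 35.2 FPKM in NC and 44.5, 42.2 and 43.8 FPKM in siGDF15 (log2 fold change 0.36, standard error 0.044, adjusted p = 0.00017), each siGDF15 library lying above each NC library. SRSF1 shares 41.3% of its words of 150 bases with an overlapping annotated gene on the same strand, AC015813.2, measured at 2.48 ± 0.539 FPKM in NC and 1.02 ± 0.367 FPKM in siGDF15.

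The HNRNP genes, whose proteins coat nascent RNA and often oppose SR proteins, fell in 6 of 7 cases. HNRNPA3 measured 91.7, 86.2 and 87.7 FPKM in NC and 54.3, 50.4 and 54.4 FPKM in siGDF15 (log2 fold change -0.63, standard error 0.047, adjusted p = 1.0e-05). HNRNPA1, the most abundant of all members, measured 192, 181 and 189.9 FPKM in NC and 132, 126 and 136 FPKM in siGDF15 (log2 fold change -0.41, standard error 0.045, adjusted p = 8.7e-05). Both were separated between the groups by more than the range within either. HNRNPM, HNRNPU, HNRNPC and HNRNPK had log2 fold changes of -0.46, -0.38, -0.27 and -0.17, of which HNRNPK, at 163 ± 1.46 FPKM in NC, had the smallest change that passed. HNRNPA1L2 measured 2.08, 0.253 and 1.83 FPKM in NC and 1.39, 0.947 and 1.25 FPKM in siGDF15, with NC replicate 2 far below the other NC libraries, and had a log2 fold change of -0.10 with a standard error of 0.59. Of the remaining RNA-binding members, PCBP1, which binds poly(C) tracts, measured 165, 158 and 175 FPKM in NC and 122, 121 and 116 FPKM in siGDF15 (log2 fold change -0.36, standard error 0.054, adjusted p = 0.00052). Its groups did not overlap. RBMX and the exon activators TRA2A and TRA2B fell by 0.28, 0.20 and 0.56 on the log2 scale, and RBMXL1 had -0.16 and did not pass (adjusted p = 0.072).

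The 11 members that rose came from 8 of the classes. PRPF40B had the largest rise at a level near the filter, with 1.13, 1.42 and 0.966 FPKM in NC and 1.83, 1.73 and 2.15 FPKM in siGDF15 (log2 fold change 0.80, standard error 0.14, adjusted p = 0.0013). Of its exonic bases, 48.7% lie opposite exons of FMNL3, which measured 4.42, 4.28 and 4.43 FPKM in NC and 1.72, 1.97 and 2.01 FPKM in siGDF15, a fall of 1.10 on the log2 scale. The pair thus moved in opposite directions, and the part of overlapping reads was not tested. After PRPF40B, the log2 fold changes were 0.49 for SYF2, 0.47 for SF3B6, 0.37 for TXNL4A, 0.36 for SRSF5, 0.30 for SLU7, 0.27 for PUF60, 0.22 for RBM25, 0.22 for PRPF6, 0.19 for DDX42 and 0.17 for NCBP2. With libraries scaled by totals in place of TMM, 6 of these 11 were still called higher.

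**Figure D3:**
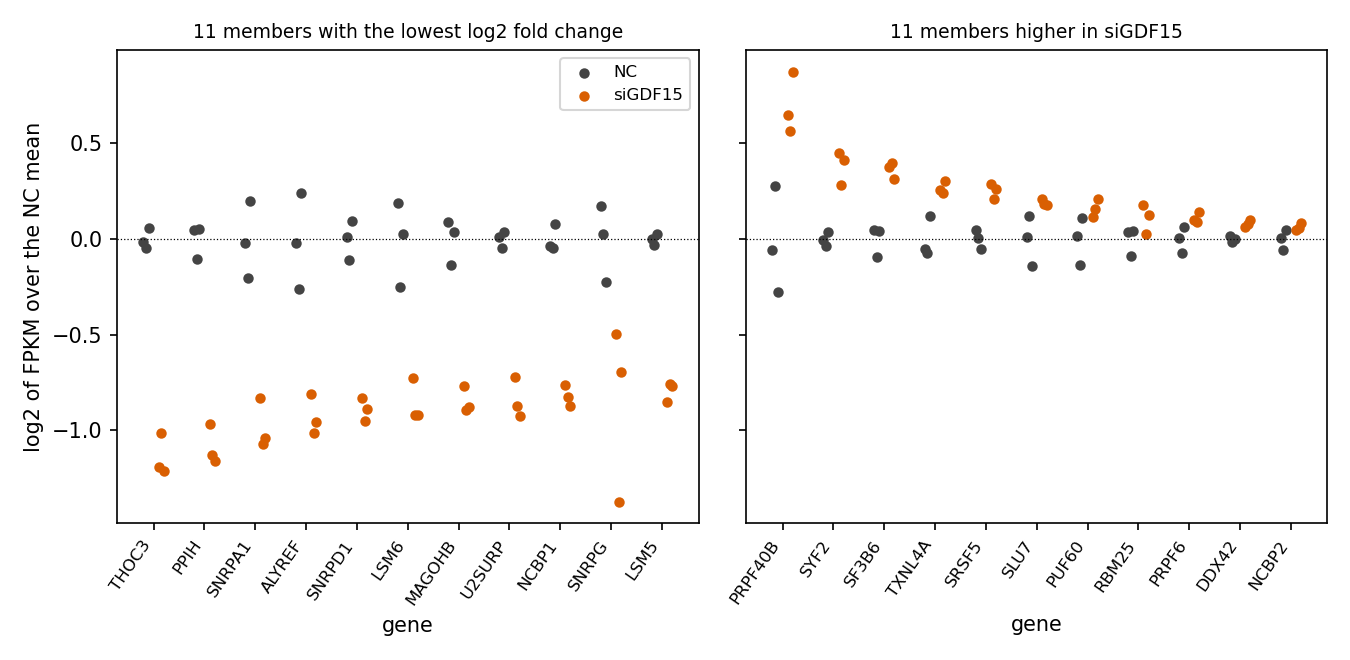
Log2 of FPKM over the NC mean of the gene in each of the 6 libraries, for the 11 members with the lowest log2 fold change (left) and the 11 members called higher (right). On the left, the siGDF15 points of each gene lie below all of its NC points, and on the right they lie above them for every gene but RBM25.

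Ratios of related genes within a library do not depend on the scaling between libraries, and 10 such pairs were compared. For 9 of them the 3 siGDF15 ratios lay outside the 3 NC ratios, each with p = 0.1 by a two-sided exact permutation test, the smallest that 3 against 3 libraries can give, and 0.11 after Benjamini-Hochberg adjustment over the 10 pairs. Among all tested genes, 42.8% lay below NC and 25.6% above it in FPKM without overlap. How often ratios of other gene pairs were separated was not computed, so the count is not set against a background. Values are given for 9 of the 10. U2AF1/U2AF2 rose by 0.82, but U2AF1 shares 85.1% of its words of 150 bases with a copy described below. How the counting divided reads between U2AF1 and the copy is not given in the sources used here. MAGOH/MAGOHB rose by 0.36, so the weaker expressed MAGOHB lost more than MAGOH. TRA2A/TRA2B changed sides, from -0.18 ± 0.037 in NC to 0.17 ± 0.133 in siGDF15 (SD, n = 3 each), which put TRA2A above TRA2B in every siGDF15 library and below it in every NC library. HNRNPA1/HNRNPA3 and SRSF3/SRSF7 rose by 0.23 and 0.18, and SRSF1/SRSF9 and SRSF4/SRSF6 changed by -0.24 and -0.22. Exons of SRSF1 and of SRSF9 overlap those of other genes, and the part of such reads was not tested. RBMX/RBMXL1 overlapped (p = 0.3, exact permutation test).

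Of these 9 pairs, SNRPB and SNRPN had the largest change of ratio. SNRPN, which is no member by the KEGG column, encodes a close relative of the SmB protein that is made mainly in brain. It measured 20.5, 21.5 and 19.9 FPKM in NC and 28.8, 29.4 and 29.6 FPKM in siGDF15 (log2 fold change 0.61, standard error 0.046, adjusted p = 1.2e-05), while SNRPB measured 43.5, 39.6 and 44.4 FPKM in NC and 29.1, 29.2 and 28.6 FPKM in siGDF15. SNRPB stood above SNRPN in each NC library, and both were nearly level in each siGDF15 library, where the log2 ratio was 0.01, -0.01 and -0.05. The change of the mean log2 ratio was -1.06. No word of 150 bases is shared by the annotated transcripts of the pair, or by those of MAGOH and MAGOHB or of TRA2A and TRA2B. As SNRPN is no member, its overlap with genes other than SNRPB was not examined.

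**Figure D4:**
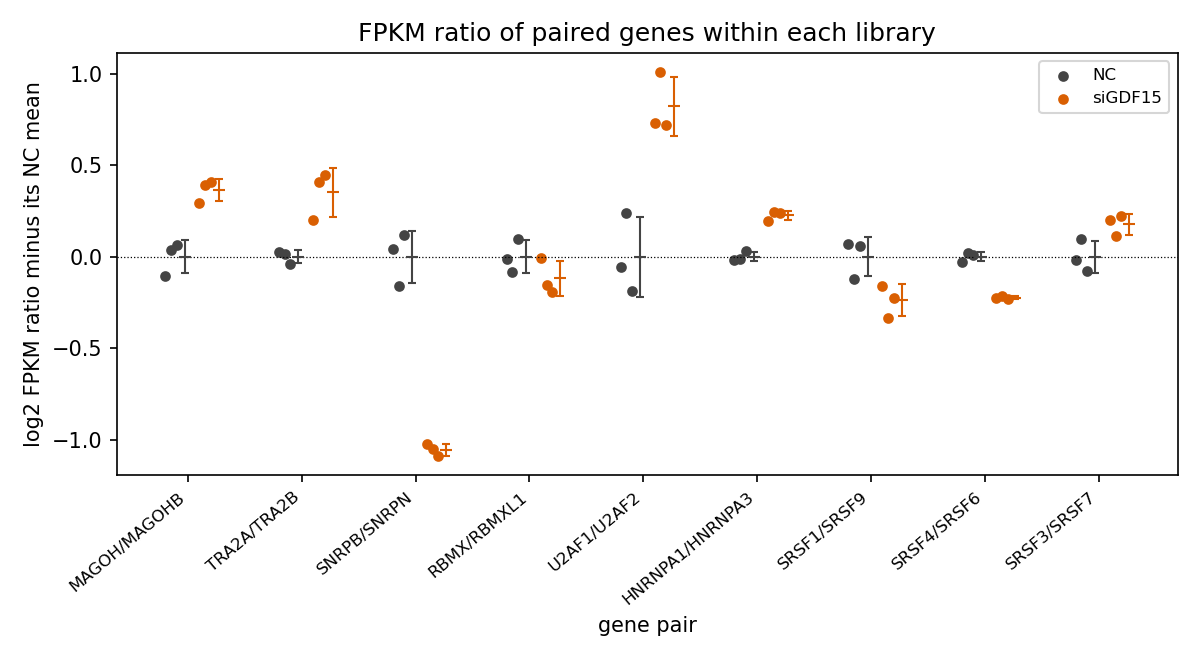
Log2 FPKM ratio within each library for 9 pairs of related genes, minus the mean of the NC ratios, with points for the 3 NC and 3 siGDF15 libraries and bars for mean ± SD. SNRPB/SNRPN stands lowest in siGDF15, at a change of -1.06, and the points of RBMX/RBMXL1 overlap.

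U2AF1, which reads the AG at the end of the intron, cannot be separated from a copy. The entry ENSG00000275895 (chr21:6484623-6499248) shares 85.1% of its words of 150 bases with U2AF1 (chr21:43092956-43107570). The deposited annotation gives its transcript type as artifact, and it stays among the 125 tested members. In FPKM it stood at the higher level, with 42.2, 35.5 and 44.0 FPKM in NC and 39.4, 25.0 and 41.4 FPKM in siGDF15. Its siGDF15 replicate 2 was far below the other libraries. U2AF1 itself measured 4.91, 5.37 and 4.64 FPKM in NC and 5.07, 5.91 and 4.84 FPKM in siGDF15, with overlapping groups. Neither passed the test of edgeR (log2 fold changes -0.10 and 0.19, adjusted p = 0.65 and 0.097), and their sum was 45.5 ± 4.13 FPKM for NC and 40.5 ± 8.36 FPKM for siGDF15 (SD, n = 3 each). That sum is not a total for U2AF1, as FPKM and counts put the pair in opposite order. The U2AF1/U2AF2 ratio above used U2AF1 alone. Over all 125 tested members, 14 shared more than 5% of their words of 150 bases with transcripts of other genes and 99 shared none. Words were compared on the transcript strand only. Of the exonic bases, 52.2% in PCBP1, 46.7% in BUD31, 46.2% in SRSF9, 36.7% in SRSF2 and 32.0% in PRPF31 lie opposite other exons. These genes are among those that shared none, and the part of overlapping reads was not tested.

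The 12 members below the filter were not tested. The 9 genes RNU1-1, RNU1-2, RNU1-3, RNU1-4, RNVU1-1, RNVU1-7, RNU2-1, RNU4-1 and RNU5A-1 encode the small nuclear RNAs themselves, which carry no poly(A) tail and were selected against in these libraries. Their highest value was 0.302 FPKM and their highest count was 3, under the 12 counts that a count of 0 allows with 4 counts per read pair, so nothing was measured of the U1, U2, U4 and U5 RNAs. RBMXL2 and NCBP2L were at or near 0 in each library. ISY1-RAB43, a read-through gene that shares 16.2% of its words of 150 bases with ISY1, was listed at 2.35 FPKM in siGDF15 replicate 1 and at 0 in the other 5 libraries.

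Genes of related steps outside the KEGG entry had smaller shares of falls, apart from the other hnRNP genes. Among all tested genes, 31.4% fell and 30.0% rose. Of 15 other hnRNP genes, 13 fell (86.7%) and 0 rose, with a median log2 fold change of -0.37. HNRNPH3 measured 24.0, 23.7 and 23.8 FPKM in NC and 12.3, 11.9 and 12.5 FPKM in siGDF15 (log2 fold change -0.86, standard error 0.041, adjusted p = 1.3e-06), and HNRNPAB measured 110.5, 96.4 and 121 FPKM in NC and 59.4, 56.4 and 56.3 FPKM in siGDF15 (log2 fold change -0.82, standard error 0.082, adjusted p = 5.1e-05). Both were far below NC in every siGDF15 library. Of 11 SR-related proteins and SR protein kinases, 6 fell (54.5%) and 0 rose (median -0.15), with SRPK1 and SRPK2, kinases of SR proteins, at -0.52 and -0.51. Of 10 genes of the minor spliceosome, which removes the rare U12-type introns, 4 fell and 1 rose (median -0.16). Of 20 genes that assemble snRNPs, 10 fell (50.0%) and 3 rose (15.0%), with a median of -0.19. WRAP53, which brings RNAs to Cajal bodies, measured 4.91, 4.88 and 4.81 FPKM in NC and 2.05, 2.29 and 2.36 FPKM in siGDF15 (log2 fold change -1.02, standard error 0.072, adjusted p = 8.6e-06), and GEMIN2 of the SMN complex had -0.69, whereas GEMIN8 of that complex rose (0.51). SMN1 and SMN2 are near-identical and had 0.21 and 0.20. SMN2 passed and SMN1 did not (adjusted p = 0.027 and 0.076 from edgeR), and the FPKM groups of both genes overlapped.

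Regulators of alternative exons were divided, with 7 of 16 lower (43.8%) and 4 higher (25.0%) and a median of -0.02. Both shares were near those of all tested genes, 31.4% and 30.0%. PTBP3 measured 20.7, 20.2 and 19.5 FPKM in NC and 12.5, 10.5 and 10.8 FPKM in siGDF15 (log2 fold change -0.73, standard error 0.066, adjusted p = 3.0e-05), MBNL1 had a log2 fold change of -0.50, and QKI and MBNL2 rose with 0.42 and 0.33. Of 10 factors of nonsense-mediated decay, 6 fell (60.0%) and 0 rose (median -0.24), with UPF3B at -0.54 and UPF1 at -0.36. By KEGG entries and without the members, 71 of 135 tested RNA transport genes fell (52.6%) and 26 rose (19.3%), with a median of -0.21. Of 71 mRNA surveillance genes, 35 fell (49.3%) and 13 rose (18.3%), with a median of -0.16. RNA degradation had 32 of 64 lower (50.0%) and 13 higher (20.3%), with a median of -0.18. Of 73 ribosome biogenesis genes, 24 fell (32.9%, against 31.4% of all tested genes) and 7 rose (9.59%, against 30.0%), with a median of -0.07. The ribosome itself went the other way, with 12 of 134 lower (8.96%) and 78 higher (58.2%) and a median of 0.35.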

How the data were processed

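RNA-seq of 6 libraries was used, 3 NC and 3 siGDF15, grouped by their labels. Reads were processed by the authors with fastp, HISAT2, StringTie and edgeR on GRCh38, per the submitters' notes. Versions, options and the strand setting are not given in the sources used here. For each library the authors deposited FPKM, corrected for transcript length and mapped fragments, and expected counts, whole numbers that were not normalized. The most frequent low count was 4, taken as 1 read pair.

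Counts were fitted with edgeR 4.0.16 (quasi-likelihood test, TMM, two-sided, no covariates) in R 4.3.3. Genes entered at a mean of 1 FPKM or more (11867 genes), and p-values were adjusted over all of them by Benjamini-Hochberg. Calls needed an adjusted p under 0.05. Each standard error is the fold change divided by the root of its F statistic. The script was tested on simulated data. P-values measure only the spread between these libraries. Members and lists were chosen with earlier results of these data known. Genes were named by rule: members past 2-fold, the largest rise and fall of each class among separated genes, the most abundant of each class, the pairs compared by ratio and members under the filter. Other names were chosen after values were seen. Some single genes and 1 pair, which stay in the counts, are not reported here.

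Alternatives were DESeq2 1.42.0, limma 3.58.1 on log2 of FPKM plus 0.1 or 1, other scalings and filters, counts divided by 4, the replicate block and each library left out. Exon overlaps and shared words came from GENCODE release 29, with Python 3.11.15 and pandas 2.3.3. Floors cover counting error only.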

Additional observations from a re-analysis of the deposited data

How the results depend on the processing

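No called member changed sign under any of the 15 alternatives. The count of members lower ranged from 74 to 96 (main 86) and stayed within 1.5 times of the main count. The count of members higher was 11 by the main fit, 6 with totals without TMM, 5 with limma on log2 of FPKM plus 0.1, 5 with limma on log2 of FPKM plus 1 and 6 with no filter. The share of higher among member calls was 11.3%, against 5.94% with totals and 15.9% when libraries were brought to 1 median. Members past 2-fold numbered 1, and 2 with totals, with limma and a pseudocount of 0.1, with a mean FPKM of at least 0.1 and with no filter, when PPIH joined THOC3, and 0 with libraries at 1 median. The median of the members was -0.37 with totals and with limma and a pseudocount of 0.1, -0.34 with limma and a pseudocount of 1, -0.32 with no filter and -0.21 at 1 median. The medians of all tested genes in those fits were -0.099, -0.0997, -0.081, -0.051 and 0.057.

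Leaving out 1 library gave 74 to 91 members lower, 10 to 14 higher, 0 to 2 past 2-fold and a median of -0.32 to -0.24. Of the 10 ratios of gene pairs, 9 to 10 were separated. Replicate numbers did not pair the libraries (correlations of same-numbered deviations 0.04, -0.113 and 0.032). With the replicate block, 77 members were lower and 12 higher, with a median of -0.27, and ZMAT2 lost its call (adjusted p = 0.094). A named gene counted as the same if its call was unchanged, and a class median if it shifted by less than 1 SD between libraries. By that rule 821 values were the same, and 59 values, all class medians, shifted by more. Calls of named genes were lost in 27 cases and gained in 8. NCBP2, PUF60, SLU7, ZMAT2, SRSF9 and TRA2A lost calls under at least 1 alternative, and RBMXL1, U2AF1 and SNRPD2 gained one. SNRPD2 passed at 1 median (adjusted p = 0.037) and without NC replicate 3 (adjusted p = 0.047). Poly(A) selection limits the snRNA genes, and 3 libraries per group limit the ratios of pairs.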
